A study of Homo sapiens with 2 samples.

Results

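The class 3 semaphorins, the neuropilins and the plexins that respond to them form a guidance system of secreted ligands and their receptors. Of its genes, 10 were followed in Huh-7 cells depleted of DEPDC1. They were taken by gene symbol from the 18417 genes that the array measured with a probe set of their own: the ligands SEMA3A, SEMA3C, SEMA3D, SEMA3E and SEMA3F, the receptors NRP1 and NRP2, and the plexins PLXNA1, PLXNA2 and PLXND1. The genes were selected on their siRNA minus NC log2 values in these same arrays, so the differences of the members below are a description and not a finding of a test. Huh-7 is an established human hepatocellular carcinoma line. One group received siRNA against DEPDC1, which encodes a DEP domain protein, and the other received NC, which the labels call the control without saying what it contains. Cells of both groups were collected 72 h after transfection, and the series holds 1 array for each, both named replicate 1 in the labels. No difference therefore has a replicate check, and no p-value is given.

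Class 3 semaphorins are secreted proteins first known for repelling growing axons, and they also act on endothelial and tumour cells. Most of them bind a neuropilin, which has a short cytoplasmic tail and needs a plexin as the signalling partner, while SEMA3E can bind PLXND1 without a neuropilin. Plexins carry a GTPase-activating domain for small G proteins of the Ras family inside the cell, and their signalling loosens adhesion and the actin skeleton. Neuropilins also bind growth factors of the VEGF family.

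On the log2 expression scale used throughout, DEPDC1 itself had 7.82 with NC and 5.15 with DEPDC1 siRNA, so the targeted transcript was 6.37-fold lower in the array labelled as siRNA. The 7 hepatocyte markers measured lay above the detection threshold in both arrays. Detection required that at least 1 of a gene's values reach 4.66, which is the overall median of the probe sets, and 11352 genes met it. This cutoff was set by convention, and no background was measured. Of the 10 members 9 were detected. SEMA3C passed only through its siRNA value, and PLXNA2 was under the threshold in both arrays.

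Of the 10 members, 6 were higher by at least 2-fold in the siRNA array and none was lower by that much. Among all 11352 detected genes, 1.94% were higher and 0.863% lower by at least 2-fold. Without the detection filter, 1.25% of the 18417 genes were higher and 0.543% lower by that much. The rule used this contrast, so nothing is read from the difference between the members' share and those percentages. Over all 10 members the median log2 difference was 1.20. Over the 9 detected members it was 1.24, against 0.0 over all detected genes.

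**Figure D1:**
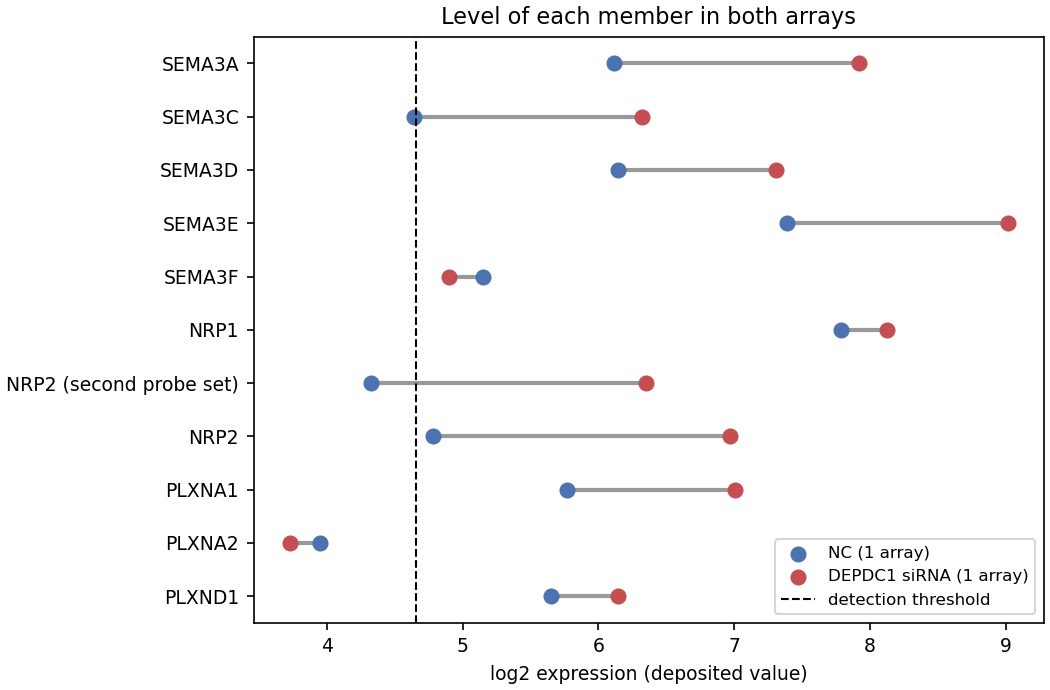
Log2 expression of each member in the NC array (blue) and the siRNA array (red), 1 array each, with 1 line per probe set and the detection threshold of 4.66 dashed. SEMA3A, SEMA3C, SEMA3D, SEMA3E, NRP2 and PLXNA1 lie well to the right in the siRNA array, while SEMA3F and PLXNA2 lie slightly to the left.

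Promoter sequences are shown for the members that were at least 2-fold higher and have an annotated start with the upstream window outside the gene, so that the upstream sequence of genes that differed in the same direction can be seen side by side. Each line gives the 250 bases before the annotated start, 5′ to 3′ on the strand of the gene, from RefSeq on GRCh38.p14. Capitals mark matches to the GC box (GGGCGG), read on both strands.

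NRP2 (chr2:205682251-205682500, plus strand): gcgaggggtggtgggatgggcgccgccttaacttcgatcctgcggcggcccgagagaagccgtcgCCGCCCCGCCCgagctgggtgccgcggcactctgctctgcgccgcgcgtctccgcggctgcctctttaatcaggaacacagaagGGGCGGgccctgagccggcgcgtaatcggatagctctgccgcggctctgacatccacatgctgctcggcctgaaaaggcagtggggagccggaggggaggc

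PLXNA1 (chr3:126982865-126983114, plus strand): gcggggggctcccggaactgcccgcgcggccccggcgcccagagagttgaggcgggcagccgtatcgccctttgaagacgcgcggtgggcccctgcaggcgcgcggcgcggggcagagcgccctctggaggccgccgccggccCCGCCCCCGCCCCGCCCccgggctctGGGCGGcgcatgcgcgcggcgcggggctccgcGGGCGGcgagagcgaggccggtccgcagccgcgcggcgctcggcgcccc

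SEMA3C (chr7:80922390-80922639, minus strand): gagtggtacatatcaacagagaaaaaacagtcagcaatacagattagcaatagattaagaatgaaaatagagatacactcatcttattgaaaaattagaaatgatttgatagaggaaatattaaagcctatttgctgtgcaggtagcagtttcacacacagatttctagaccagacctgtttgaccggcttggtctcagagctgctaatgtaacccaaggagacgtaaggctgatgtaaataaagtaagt

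SEMA3E (chr7:83649140-83649389, minus strand): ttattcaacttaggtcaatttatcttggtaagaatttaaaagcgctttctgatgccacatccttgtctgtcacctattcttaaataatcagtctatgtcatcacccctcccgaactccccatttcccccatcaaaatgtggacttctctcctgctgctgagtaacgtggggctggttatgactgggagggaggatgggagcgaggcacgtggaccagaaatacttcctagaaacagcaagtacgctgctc

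The windows of NRP2 and PLXNA1 were rich in G and C, at 70.0% and 84.4% of bases. Those of SEMA3C and SEMA3E held 36.4% and 46.4%, below the median of 58.0% over 35116 annotated windows of the same length. NRP2 had 3 GC box matches and PLXNA1 had 5, some of them overlapping, whereas the windows printed for SEMA3C and SEMA3E had none. SEMA3D has 1 annotated start, whose window lies inside the gene and is not printed; it held 57.6% G and C, close to the median of all windows, and no GC box. Of all annotated windows, 42.6% held a GC box, and of the 12 windows of the 8 members with an entry, 7 did. Members that were not 2-fold higher had such windows too. The SEMA3F window outside the gene had 82.0% G and C and 12 matches. The SEMA3F windows inside the gene had 80.4% with 2 matches and 52.8% with none. PLXND1 had 88.8% and 9 matches, and PLXNA2 had 72.4% and 3. GC boxes were therefore not confined to the higher members. A second annotated start of SEMA3C, inside the gene, had 77.6% G and C and 3 GC boxes, so the composition of a semaphorin promoter depended on the start chosen. The core letters bound by TEAD factors (GGAATG) and by AP-1 (TGANTCA), both read on both strands, were searched in the same way. Among the 12 windows of the 8 members with an entry, 1 held GGAATG, upstream of a second start of SEMA3F, and none held TGANTCA. The shares over all windows were 11.9% and 6.57%. A match is a match of letters only, and its absence says nothing about binding.

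The ligands were led by SEMA3A, the founding member, which signals mainly through NRP1 and class A plexins. SEMA3A (probe set 8140668, Entrez gene 10371) reached 6.11 on the log2 scale with NC and 7.92 with DEPDC1 siRNA. It was thus 3.50-fold higher, a log2 difference of 1.81, and ranked 44 from the highest among the 11352 detected genes.

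SEMA3C, which binds both neuropilins and has been studied as a growth-promoting ligand in tumours, had 4.64 with NC, just under the detection threshold, and 6.32 with DEPDC1 siRNA (probe set 8140534). Measured against the threshold it was at least 3.16-fold higher. The plain log2 difference of 1.68 ranked 51 from the highest.

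SEMA3E, the ligand of PLXND1, had 7.39 with NC and 9.01 with DEPDC1 siRNA (probe set 8140650). Its log2 difference of 1.63 was a 3.09-fold higher value. SEMA3D (probe set 8140686), which acts in the patterning of vessels and nerves, had 6.14 and 7.31. It was 2.24-fold higher, with a log2 difference of 1.17 and a rank of 137. In these 4 ligands the siRNA value was the higher in each case, and only SEMA3C started from a level under the threshold.

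SEMA3F, a ligand with a preference for NRP2, went the other way by a small amount. It had 5.15 with NC and 4.90 with DEPDC1 siRNA (probe set 8079896), a difference of -0.25. A difference at least this low was common, since 16.8% of detected genes had a lower one. The class 3 genes outside the rule, SEMA3B and SEMA3G, were under the threshold in both arrays. SEMA3B had 4.29 and 4.44, and SEMA3G had 4.40 and 4.30. Over the whole class of 7 ligands on the array, 4 were at least 2-fold higher, 1 was detected and lay between, and 2 were not detected. The 4 are members selected on this difference, so nothing is read from that count.

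The neuropilins differed unequally. NRP2, the neuropilin that binds SEMA3F and VEGF-C, had 4.78 with NC and 6.97 with DEPDC1 siRNA in its brighter probe set (8047738). That 4.57-fold higher value, a log2 difference of 2.19, was the largest of the 10 members and ranked 19 from the highest. A second probe set of NRP2 (8047763), annotated with GenBank clone records alone, had 4.33 and 6.35. It gave a log2 difference of 2.03, and at least 3.23-fold against the threshold because its NC value lay under it. Both NRP2 probe sets therefore pointed the same way, and the gap between them was close to the pooled SD of 0.157 between probe sets of the same gene, taken over 444 genes with at least 2 detected probe sets. Some of those probe sets may share probes, so that SD can be too small as a gauge of noise.

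NRP1, the main receptor of SEMA3A and a co-receptor for VEGF-A, had 7.78 with NC and 8.13 with DEPDC1 siRNA (probe set 7932985). The log2 difference was 0.34, or 1.27-fold higher, and 15.5% of detected genes had a larger one. The NRP1 value was thus higher by an amount that many genes on these arrays showed.

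Among the plexins, PLXNA1 had the largest difference. PLXNA1 (probe set 8082314), a signalling receptor for SEMA3A together with NRP1, had 5.77 with NC and 7.01 with DEPDC1 siRNA. It was 2.36-fold higher, a log2 difference of 1.24 and a rank of 122. PLXND1 (probe set 8090591), the receptor of SEMA3E known from vessel development, had 5.65 and 6.15. Its log2 difference of 0.50 was 1.41-fold, and 8.49% of detected genes had a larger one. PLXNA2 (probe set 7923991), another class A plexin, had 3.95 and 3.73, under the threshold in both arrays, so no fold is given for it.

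**Figure D2:**
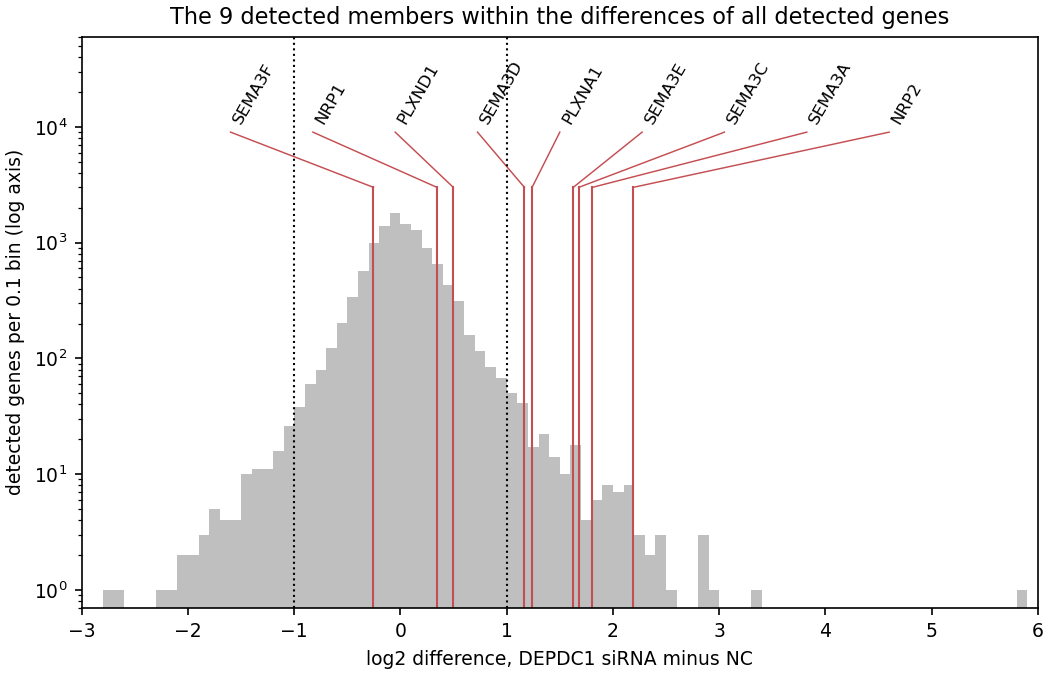
Number of detected genes (log axis) in each 0.1 bin of the log2 difference, siRNA minus NC, with the 9 detected members as red lines and 2-fold as dotted lines. SEMA3D, PLXNA1, SEMA3E, SEMA3C, SEMA3A and NRP2 lie beyond 2-fold on the right, between 1.17 and 2.19, while SEMA3F lies at -0.25.

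The interquartile range of all detected genes ran from -0.18 to 0.21 on the log2 scale. SEMA3F, NRP1 and PLXND1 lay outside it but inside 2-fold. Among the 8316 detected genes whose mean level fell within the range of the detected members, from 5.03 to 8.20, 2.0% were at least 2-fold higher. Levels of different genes are not compared here, since a probe set's brightness also depends on its probes.

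The genes of the 4 higher ligands share a chromosome. In the RefSeq gene order of GRCh38.p14, SEMA3C, SEMA3E, SEMA3A and SEMA3D lie along 1 stretch of chromosome 7, with HGF, CACNA2D1 and PCLO between SEMA3C and SEMA3E. These 3 were chosen for their place and not for their values. HGF, hepatocyte growth factor, had 2.72 with NC and 2.86 with DEPDC1 siRNA, and CACNA2D1, a calcium channel subunit, had 2.97 and 2.71, all under the threshold. PCLO, a presynaptic scaffold protein, had 4.31, under the threshold, and 4.84, so it was at least 1.13-fold higher. With the 5 protein-coding genes on either side, the window held 17 genes, of which 13 were not semaphorins. Of these 10 were measured and 6 were detected: PCLO, PHTF2, GNAI1, ELAPOR2, DMTF1 and TMEM243. None of the 6 was at least 2-fold higher or lower, and their median log2 difference was 0.13. The semaphorins in the same stretch differed by 1.17 to 1.81. They were selected on this difference, so nothing is read from the contrast with their neighbours. SEMA3F lies on chromosome 3, as do PLXNA1 and PLXND1, while NRP2 lies on chromosome 2 and NRP1 on chromosome 10.

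**Figure D3:**
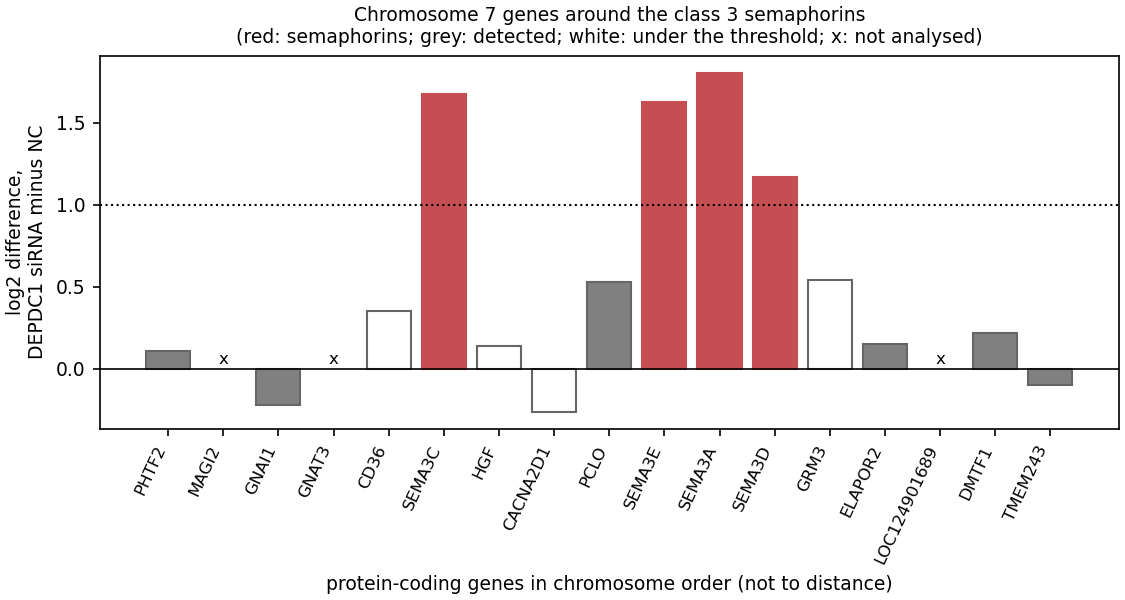
Log2 difference, siRNA minus NC, for the 17 protein-coding genes of the chromosome 7 window in their chromosome order, with semaphorins in red, other detected genes in grey, genes under the threshold in white and unmeasured genes as x. The 4 semaphorin bars pass 2-fold (dotted), and no other bar does, the highest of the detected others being PCLO at 0.53 from an NC value under the threshold. The semaphorins were selected on this axis, and the other genes were taken for their place.

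The rest of the semaphorin and plexin families gave no further gene past 2-fold. Of 12 semaphorins of classes 4 to 7 on the array, 6 were detected, none was at least 2-fold higher or lower, and the median over the detected genes was 0.09. SEMA6A, a membrane-bound semaphorin that binds class A plexins, had the largest difference of them, from 6.71 with NC to 5.88 with DEPDC1 siRNA, a log2 difference of -0.83. SEMA4G differed by 0.43 and SEMA4B by 0.42. Of 6 plexins outside the rule, 5 were detected and none passed 2-fold in either direction, with a median of -0.07. PLXNA3 differed by 0.53 from an NC value of 4.65 that lay under the threshold. PLXNB2 differed by 0.32 and PLXNB1 by -0.26. Over all 19 semaphorins on the array 4 were at least 2-fold higher, and these 4 were class 3 ligands of the rule. Over all 9 plexins 1 was, PLXNA1. Among all detected genes 1.94% were higher by that much. Those ligands and PLXNA1 were selected on this difference, so nothing is read from the contrast with the rest of the families.

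Growth factors that share the neuropilins, and their receptors, went both ways. Of 9 measured genes 6 were detected, and their median was 0.20. As measured, FLT1 alone was past 2-fold higher, but not once its NC value was raised to the threshold, and none was 2-fold lower. Over all detected genes, 1.94% were higher and 0.863% lower by at least 2-fold. VEGFC, the lymphatic growth factor that binds NRP2, had 6.48 with NC and 7.48 with DEPDC1 siRNA, a log2 difference of 0.9987, just short of 2-fold. FLT1, a VEGF receptor, had 3.51 and 4.85. Its NC value lay under the threshold, so that its measured log2 difference of 1.34 supports only a bound of at least 1.15-fold higher. VEGFA, the main angiogenic factor, had 8.19 and 8.12. VEGFB, a relative of it, differed by -0.43 and PGF, placental growth factor, by -0.46, these 3 being named after their values were seen. MET, the HGF receptor, differed by 0.48.

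Proteins that process semaphorins or join their receptors went both ways. None of 6 detected genes passed 2-fold, and their median was 0.13. NRCAM, an adhesion molecule of the L1 family that joins neuropilin complexes, had 7.17 and 7.95, a log2 difference of 0.78, and L1CAM differed by 0.35. FURIN, the protease that cleaves class 3 semaphorins, had 7.97 with NC and 7.68 with DEPDC1 siRNA, a difference of -0.30.

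Inside the cell, 24 of 27 measured genes of plexin signalling were detected. Their median was 0.14, 18 had a higher value and 6 a lower one, and among all detected genes 49.9% had a higher value. RRAS, the small G protein R-Ras that plexins inactivate, was the single gene of the list past 2-fold higher, beside 1.94% of all detected genes. It had 6.44 with NC and 7.79 with DEPDC1 siRNA, 2.54-fold higher. The MICAL proteins, flavoenzymes that bind plexins and oxidise actin, were all detected and all had higher values. MICAL2 had 8.61 and 9.56, a log2 difference of 0.96, MICAL1 had 4.86 and 5.66, a log2 difference of 0.80, and MICAL3 differed by 0.58. The last was named after its value was seen.

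The netrin and slit systems, which guide axons alongside the semaphorins, were taken as like families for comparison. Of 18 measured genes 8 were detected and 1 was at least 2-fold higher, with a median of 0.16. That gene was NTN4, a netrin of basement membranes, with 6.12 with NC and 8.37 with DEPDC1 siRNA, 4.78-fold higher. RGMB, a BMP co-receptor, differed by -0.53 and SLIT2, a ligand of ROBO receptors, by 0.44. Across all of these lists, 55 of 81 measured genes were detected. Of these, 3 were at least 2-fold higher as measured and none was lower by that much, beside 1.94% and 0.863% of all detected genes. When values below the threshold were set to it, the count higher was 2, RRAS and NTN4, beside 1.61% of all detected genes. The median over the detected genes was 0.14.

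**Figure D4:**
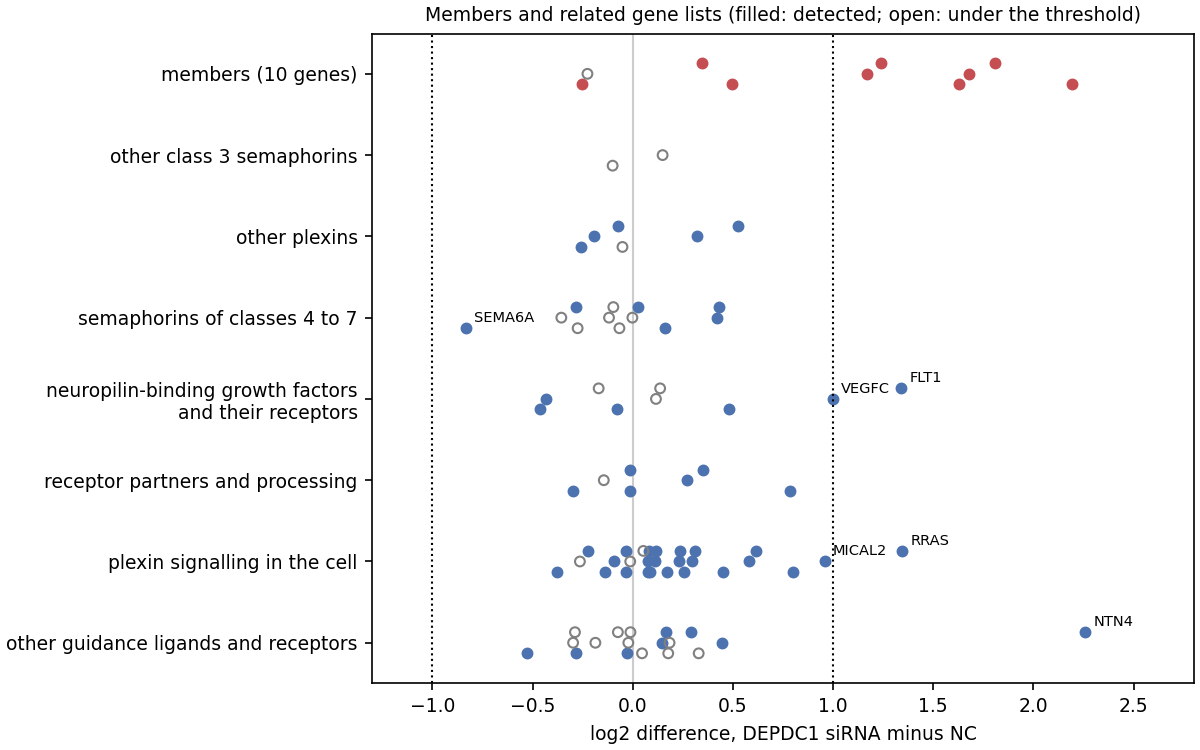
Log2 difference, siRNA minus NC, of each gene in the member set (red) and in the related lists (blue), with genes under the threshold as open circles and 2-fold as dotted lines. In the related lists RRAS and NTN4 lie past 2-fold on the right, as does FLT1 by a measured value whose bound is 1.15-fold; the members were selected on this axis, so their place is shown for reference.

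Semaphorins and neuropilins are also made by fibroblasts, endothelial cells and neurons, and markers of other cell types moved beside them in part. Of 11 fibroblast and stellate cell markers 7 were detected and 3 were at least 2-fold higher, beside 1.94% of all detected genes. These were LUM, a matrix proteoglycan, with 7.64 and 9.95, FBN1, a microfibril protein, with 5.79 and 7.98, and COL1A2, a collagen chain, with 5.43 and 6.50. COL1A1, COL3A1, PDGFRA and DES differed by 0.06, -0.04, 0.09 and 0.11. PDGFRB, DCN, ACTA2 and LRAT were under the threshold in both arrays. All of these but the 2-fold higher markers were named after their values were seen. The list's summed linear value, adding 2 to the power of each log2 value, was 540.2 with NC and 1577 with DEPDC1 siRNA. Bright probe sets weigh most in such a sum: LUM alone gave 199.5 and 988.1, and the 8 markers other than LUM, FBN1 and COL1A2 together gave 242.3 and 246.8. Of 7 endothelial markers 1 was detected, CLDN5, named after its value was seen, at 5.18 and 4.99, and the summed values were 104.0 and 97.5.

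Among 5 measured neuronal markers 3 were detected. MAP2, a microtubule protein of dendrites, had 4.29 with NC, under the threshold, and 6.23 with DEPDC1 siRNA, at least 2.98-fold higher. SYT1, a synaptic vesicle protein, had 5.50 and 6.49, while SNAP25, a synaptic membrane protein, was lower, at 5.19 and 4.68. RBFOX3, the nuclear marker NeuN, was under the threshold in both arrays, at 4.56 and 4.41. SYT1, SNAP25 and RBFOX3 were named after their values were seen. The summed values of that list were 134.1 and 222.0. Of 6 macrophage markers 3 were detected, and LYZ, lysozyme, was 2.30-fold higher, with summed values of 234.7 and 292.4. The other detected markers, CD14 and MARCO, differed by 0.27 and 0.005. CD68, CD163 and CSF1R were under the threshold in both arrays, with slightly lower siRNA values. These other markers were named after their values were seen. No marker is listed at 0, since array values have a floor above it. Hepatocyte markers went the other way in most cases, AFP from 10.89 to 8.92, SERPINA1 from 7.86 to 6.19 and APOB from 10.67 to 9.32, with ALB at 11.89 and 11.39, APOA1 at 6.32 and 5.61 and FGB at 10.89 and 10.43. TTR was higher, at 8.31 and 9.72. The summed hepatocyte values were 9835 and 6144. The titles of both samples name Huh-7 cells alone. The part of other cell types, or of a changed state of the Huh-7 cells, in the member values was not tested. In RNA of whole cultures, fewer cells of a type and less RNA per cell cannot be told apart.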

How the data were processed

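Total RNA of 2 cultures was measured on Affymetrix arrays, 1 per group. RNA was extracted with TRIzol and labelled as biotinylated cRNA, per the labels' protocols. Affymetrix Expression Console and Transcriptome Analysis Console 3.0 are named, without a role, per the submitters' processing notes; background correction and normalization are not given in the sources used here. The deposited values have no stated unit and were taken as log2 expression from their range (1.39 to 12.7) and near-equal medians (4.67 for NC, 4.64 for siRNA). Sorted columns differed by at most 0.0997, so the values were used without further scaling. RNA quality was not assessed, since scanner intensities were not used here.

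GEO's platform annotation named 1 gene for 19460 of 33297 probe sets, several for 1754 and none for 12083. Symbols were updated by Entrez identifier to RefSeq (19429 of 19460 matched). The probe set with the highest mean stood for a gene. Differences are siRNA minus NC, counted at 2-fold without a test. All 10 members are named, with DEPDC1, listed pathway genes past 2-fold or among the 3 largest differences of a list, hepatocyte markers and detected markers past 2-fold. Not analysed here were SEMA4C, VEGFD, GIPC1, RHOD, PAK1, TUBB3, HNF4A, MAGI2, GNAT3 and LOC124901689. The members and lists were chosen with earlier results of these data known. Scripts used Python 3.11.15, pandas 2.3.3 and statsmodels 0.14.6 and were tested on simulated data. Of 8 members RefSeq promoters were matched; SEMA3A and NRP1 had no entry.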

Additional observations from a re-analysis of the deposited data

How the results depend on the processing

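No paired analysis was possible because each group had 1 array, and leaving out an array was likewise not possible. The 13 alternatives covered the probe set that stands for a gene, the normalization, the detection filter, the fold threshold, values raised to the threshold and the symbols. One of them, a filter at the median of probe sets that list a gene, was chosen after seeing the data. The count of members at least 2-fold higher was 6, except for 5 with the filter at the 75th percentile and 1, NRP2, at a threshold of 4-fold. The NC value of NRP2 lay close above the detection threshold. The median over the detected members was 1.24. It ranged from 1.19 with a lowess trend removed to 1.43, with 1.20 without a filter or at the 25th percentile filter and 1.22 after quantile normalization. The value of 1.43 arose both at the 75th percentile filter, which left 6 members, and at the filter from gene-listed probe sets, which left 8. Without a filter 1.25% of genes were higher and 0.543% lower, and at the 75th percentile 1.32% were lower. At 1.5-fold, 6.03% of detected genes were higher and 3.73% lower, with 8 pathway genes higher and 1 lower; at 4-fold these were 0.264% and 0.0529%, with 1 pathway gene higher. Several settings could not move most members, since the subtracted median was 0.0, no member's symbol was updated, NRP2 alone has 2 probe sets, and raising values touches SEMA3C and PLXNA2 alone. Quantile normalization and the lowess trend could move all 10, and over these 20 values the largest shift was 0.0587 and no sign changed. NRP2 by its dimmer probe set was 2.03. FLT1 dropped to 0.20 when values were raised to the threshold. With 1 array per group, precision is limited by the number of arrays.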

Other observations

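The deposited columns held more identical values than a continuous measurement usually gives. Of 33297 probe sets, 1940 (5.83%) had exactly the same value in both arrays, while 1 probe set had a difference above 0 and under 0.0001. Up to the 25th percentile of mean levels the share was 12.7%, then 7.0% up to the median and 2.88% up to the 75th percentile, and it was 0.745% above that. Among detected genes it was 1.98% (225 genes). None of the 11 probe sets of the semaphorin, neuropilin and plexin genes was among them. The median difference of 0.0 over detected genes falls within this block of identical values. The cause was not tested.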
